A study of Mus musculus with 6 samples.

Results

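Heat shock proteins and J-domain cochaperones were described in 6 RNA-seq libraries of mouse CD4+ effector T cells. The genes were taken by name from the deposited table: the families Hspa, Hspb, Hspd, Hspe, Hsph and Hsp90a, and the J-domain families Dnaja, Dnajb and Dnajc. The ER stress genes Hspa5, Dnajb9, Dnajb11 and Dnajc3 were left out of the set. This gave 67 of the 23366 genes in the table, of which 52 had enough counts to be tested, and 9 had no count in any library. All cells were taken from lymph nodes of the mesentery, 6 weeks after T cells had been transferred into Rag-deficient hosts, which lack their own T and B cells. All samples carry the strain label FVB/N. Cells were sorted on rhodamine 123 (Rh123), a dye that the transporter Mdr1 exports: 3 libraries are of dye-low cells, labelled Mdr1+, and 3 of dye-high cells, labelled Mdr1-. The groups are thus defined by dye content, and no label ties the replicates to different animals or cultures. P-values therefore describe the scatter of these 6 samples alone, and it may be technical.

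Hsp70 chaperones bind exposed stretches of unfolded proteins and release them in a cycle driven by ATP. J-domain proteins bring clients to Hsp70 and start ATP hydrolysis, Hsp110 proteins exchange the nucleotide and let the client go, and Hsp90 acts later on folded clients such as kinases and steroid receptors. In T cells these chaperones support signalling kinases, and heat shock factor 1 (Hsf1) induces several of them when unfolded protein accumulates, through heat shock elements, which are alternating GAA and TTC units spaced by any 2 bases.

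Upstream sequences are shown for the members that passed the test below, with or without pairing of the libraries, and that hold at least 2 such units in the 250 bases before a RefSeq start site. They are on GRCm38.p6, not the mm9 build of the counts, and the capitals mark the units. Only exact GAA and TTC letters were searched, so units that differ at any base are neither marked nor counted. The first pair of genes lies on chromosome 17 on the minus strand, Hspa1a at chr17:34972157-34972406 and Hspa1b at chr17:34959239-34959488, and encodes the heat-inducible cytosolic Hsp70.
Hspa1a: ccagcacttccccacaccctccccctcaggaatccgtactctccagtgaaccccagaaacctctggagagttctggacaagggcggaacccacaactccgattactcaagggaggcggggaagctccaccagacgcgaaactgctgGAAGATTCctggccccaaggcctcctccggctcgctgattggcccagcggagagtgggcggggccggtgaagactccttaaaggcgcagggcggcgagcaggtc
Hspa1b: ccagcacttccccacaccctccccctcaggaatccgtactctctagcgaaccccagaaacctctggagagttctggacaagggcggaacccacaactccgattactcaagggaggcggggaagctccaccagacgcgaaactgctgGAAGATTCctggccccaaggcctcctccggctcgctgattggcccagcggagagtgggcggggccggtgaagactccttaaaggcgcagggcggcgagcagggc

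The 2 upstream regions differed at 3 of 250 bases (98.8% identical), and each held 1 pair of units. Shorter stretches are shown for the others: Hsph1, an Hsp110 gene, at chr5:149636337-149636429 on the minus strand, Dnajb4 at chr3:152193846-152193919 on the minus strand, and Dnajb6 at chr5:29735792-29735897 on the plus strand.
Hsph1: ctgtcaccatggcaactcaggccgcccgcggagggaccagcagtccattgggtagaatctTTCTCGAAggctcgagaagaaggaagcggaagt
Dnajb4: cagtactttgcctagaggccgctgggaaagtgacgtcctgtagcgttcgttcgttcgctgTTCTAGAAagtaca
Dnajb6: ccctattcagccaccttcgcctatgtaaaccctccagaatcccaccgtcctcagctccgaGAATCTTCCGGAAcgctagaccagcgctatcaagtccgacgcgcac

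Dnajb6 was the 1 member past the test whose upstream region held 3 exact units in a row. This motif is GAANNTTCNNGAA or TTCNNGAANNTTC, which read as each other on the other strand. Of 53 members with a RefSeq promoter entry, 3 held this motif (5.66%), against 0.514% of 27025 genes, and the other two were Hspd1 and Hspe1. These encode the mitochondrial chaperonin and its lid and are transcribed in opposite directions. Their RefSeq promoter entries, which also cover bases after the start, overlap by 285 bases. The pair of units (GAANNTTC or TTCNNGAA, each its own reverse complement, and part of the longer motif) was present in 14 of 53 members (26.4%) and in 14.5% of all genes. It was found in 5 of the 8 members past the test, and not in those of Dnajb1, Dnajc9 and Dnajc15.

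Library depth ranged from 2220691 to 20771456 counts in genes, and the Mdr1+ library of replicate 3 was the shallowest. Levels are given as CPM, counts relative to the library's total, after edgeR's TMM scaling between libraries. A floor of 3 counts corresponded to between 0.144 and 1.35 CPM before that scaling. CPM values are compared between libraries for 1 gene, not between genes. The sort was checked on Abcb1a, the main gene for Mdr1. It was at 177, 132 and 178 CPM in the Mdr1+ libraries of replicates 1, 2 and 3 and at 72.9, 42.0 and 73.4 CPM in the Mdr1- libraries. Abcb1b, the other mouse gene for Mdr1, was at 139, 41.6 and 101 CPM in Mdr1+ and 75.9, 25.1 and 66.2 CPM in Mdr1- libraries. Its groups overlapped, it was higher in each pair, and it passed only with the block (edgeR adjusted p = 0.624, and 0.0046 with the block). The T cell genes Cd3d, Cd3e, Cd3g and Cd4 were present in every library, with Cd4 between 1023 and 1124 CPM. Of the markers of other cells, Krt8, Krt19, Pdgfra, Hba-a1 and Hbb-b1 were at 0 in all 6 libraries. The 5 epithelial genes together were at 2.82 to 10.8 CPM in Mdr1+ and 3.24 to 7.98 CPM in Mdr1- libraries. Epcam was highest in the Mdr1+ library of replicate 3 (8.02 CPM). Krt18 was lower in Mdr1+ cells in each pair (ratios 0.470, 0.353 and 0.521), and both genes did not pass in either fit. The summed level of 8 myeloid genes was 101.5 CPM in the Mdr1- library of replicate 3 and 10.2 to 24.1 CPM in the other 5. Summed over 7 genes of dendritic cells the level was 24.2 to 48.1 CPM in Mdr1+ and 61.7 to 83.7 CPM in Mdr1- libraries, and 2 of the 4 tested, H2-Aa and Cd74, fell with the block. Summed B cell genes were at 11.1 to 22.8 and 6.59 to 11.1 CPM, and Cd22 rose with the block. Of the myeloid genes Lyz2 fell with the block. Summed stromal and endothelial genes were at 117 to 190.5 and 125 to 136 CPM, nearly all of it Pecam1. Acta2, of that list, fell in both fits, from 4.35, 6.40 and 4.08 CPM in Mdr1- to 0, 0.280 and 0 CPM in Mdr1+ libraries. Cdh5, of the same list, was lower in Mdr1+ cells without overlap, at 0.327 to 0.472 against 1.79 to 2.42 CPM, and did not pass in either fit. The part of these cells in the results below was not tested.

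The members took 0.485% to 0.617% of the counts in each library. Their share was 0.617% and 0.568% in replicate 1 (Mdr1+ and Mdr1-), 0.559% and 0.540% in replicate 2, and 0.487% and 0.485% in replicate 3. Hsp90ab1, the member with the most counts, weighs heavily in these sums. Without it the shares were 0.395% and 0.370% in replicate 1 and 0.353% and 0.328% in replicate 2. In replicate 3 they were 0.322% and 0.333%, so there the Mdr1- library was higher. Libraries of the same number deviated together over all genes, so a second fit, called the block below, takes the replicate number as a term beside the group.

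The comparison asked which of these transcripts differ between dye-low and dye-high effector cells. Hspa1a, Hspa1b, Dnajb4, Dnajb6, Dnajb1 and Hsph1 were higher in Mdr1+ cells within each replicate number, Hspa1a and Hspa1b by 1.52 to 1.89 times. These 6 are named because they rose in the fit with the block, and 0 members rose without it. Being higher within each number was not particular to them: 20 of 52 tested members were (38.5%), and 28.2% of all tested genes. Not every heat-inducible gene was higher in each pair: Hsp90aa1 had ratios of 1.20, 1.498 and 0.926, while Bag3 had ratios of 1.14, 1.38 and 1.33. The exception is 1 ratio near 1, in a gene that shares much sequence with other genes, as given below. Dnajc15, a J protein of the inner mitochondrial membrane, was about 2-fold lower in Mdr1+ cells, and Dnajc9, a histone cochaperone, was lower by a smaller margin. In edgeR's quasi-likelihood test without the block, 0 of 52 tested members rose and 1 fell, Dnajc15, at an adjusted p under 0.05 over all 10897 tested genes. That is 1.92% of the tested members, where 2.22% of all tested genes passed, 0.275% as rises and 1.95% as falls. At an unadjusted p under 0.05, 2 members were higher (4.63% of all tested genes were) and 3 lower (7.22% were), and DESeq2 also called 0 higher and 1 lower. With the block, 6 members rose (11.5%, against 5.81% of all tested genes) and 2 fell (3.85%, against 6.57%), where 12.4% of all tested genes passed in either direction.

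Most members had a small positive difference. The fitted log2 fold change was above 0 for 35 of 52 members (67.3%) and for 54.2% of all tested genes, with medians of 0.12 and 0.04. Within replicate numbers 1, 2 and 3 the members' median log2 ratios were 0.07, 0.14 and 0.18, and those of all tested genes were -0.0038, 0.095 and -0.016. In all 3 pairs 20 members were higher in Mdr1+ cells (28.2% of all genes were) and 8 were lower (24.6% of all genes were). Libraries of the 2 groups did not overlap for 6 members that were higher (8.71% of all tested genes) and 6 that were lower (11.0% of all tested genes), and 19.7% of all tested genes had no overlap in either direction. The members' share was 11.5% in each direction, close to that background.

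**Figure D1:**
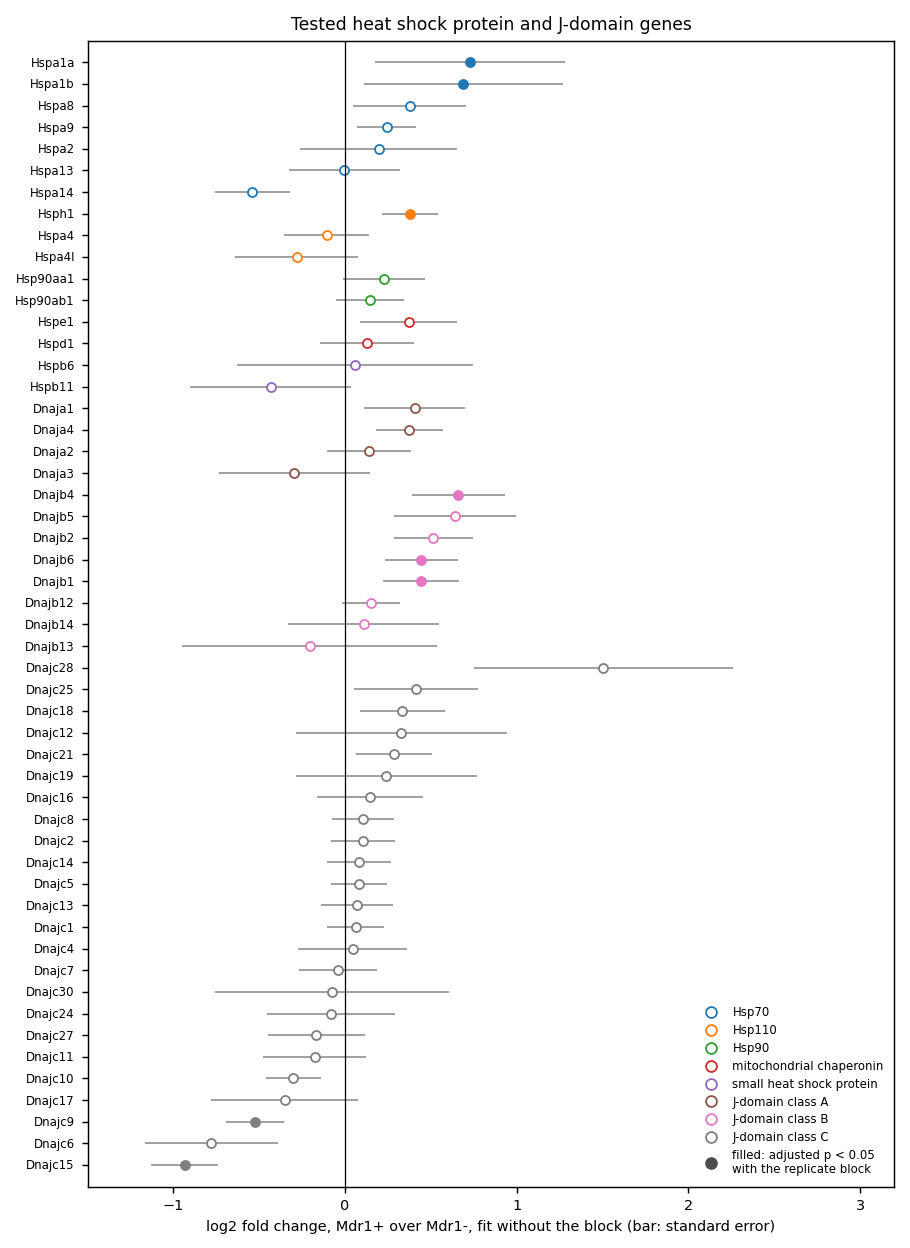
Log2 fold change of Mdr1+ over Mdr1- cells (x axis) with its standard error for each of the 52 tested members (y axis), in the fit without the block. Colours are families, and filled symbols passed with the block: 6 members to the right of 0 (Hspa1a, Hspa1b, Hsph1, Dnajb4, Dnajb6, Dnajb1) and 2 to the left (Dnajc9, Dnajc15).

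Among Hsp70 genes, 7 of 10 were tested, 0 passed without the block and 2 rose with it (5.81% of all tested genes did). Hspa1a was at 130.4, 51.1 and 35.4 CPM in the Mdr1+ libraries of replicates 1, 2 and 3, and at 79.1, 30.4 and 22.4 CPM in the Mdr1- libraries of the same numbers. The groups overlapped, because both libraries of replicate 1 stood above the rest, and the Mdr1+ library was higher in each pair. The pair ratios were 1.65, 1.68 and 1.58, although the libraries of 1 group differed by 3.53 to 3.69 times. The log2 fold change was 0.73 ± 0.55 (SE; adjusted p = 0.682) without the block and 0.72 ± 0.12 (adjusted p = 0.0069) with it, both by edgeR's quasi-likelihood test.

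Hspa1b had the same order of libraries, with 178, 67.8 and 49.99 CPM in Mdr1+ and 118, 35.8 and 31.4 CPM in Mdr1- cells, and pair ratios of 1.52, 1.89 and 1.59. Its log2 fold change was 0.69 ± 0.58 (adjusted p = 0.72) and, with the block, 0.74 ± 0.12 (adjusted p = 0.0054; edgeR). In the shallowest library these levels rested on 75 counts of Hspa1a and 106 counts of Hspa1b. The transcripts of these genes share sequence, as given below, so their values are not independent of each other. Leaving out the Mdr1+ library of replicate 1 turned the sign in the fit without the block, to -0.04 for Hspa1a and -0.08 for Hspa1b. In the fit with the block, Hspa1b passed without any 1 of the replicate numbers (adjusted p between 0.0025 and 0.035), and Hspa1a lost its call without replicate 1 (adjusted p = 0.136).

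The other tested Hsp70 genes did not pass in either fit. Hspa8, the constitutive cytosolic Hsp70, was higher in each Mdr1+ library than in its Mdr1- partner, by 1.24, 1.47 and 1.31 times (adjusted p = 0.113 with the block). Hspa9, the mitochondrial Hsp70, was at 226, 213 and 177 CPM in Mdr1+ and 195, 167 and 159 CPM in Mdr1- cells (ratios 1.16, 1.27 and 1.11; adjusted p = 0.107 with the block). Hspa2, an Hsp70 known from testis, and Hspa13, a microsomal Hsp70, had log2 fold changes of 0.19 and 0.00. Hspa14, which works at the ribosome with Dnajc2, went the other way, at 97.0, 79.8 and 53.8 CPM in Mdr1+ and 120.0, 102 and 116 CPM in Mdr1- cells. Its groups did not overlap, and its log2 fold change of -0.54 ± 0.22 missed the threshold in both fits (adjusted p = 0.368, and 0.0513 with the block). With the block and without replicate 1, 2 or 3 it passed (edgeR adjusted p = 0.00539, 0.0276 and 0.0272). Its partner Dnajc2 had a log2 fold change of 0.10. Hspa1l, Hspa12a and Hspa12b, with 2, 6 and 1 counts in all, were not tested.

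Of the 3 Hsp110 genes 1 rose with the block (5.81% of all tested genes did). Hsph1 was at 219, 230.2 and 187 CPM in Mdr1+ and 181, 156 and 154 CPM in Mdr1- cells, so that every Mdr1+ library lay above every Mdr1- library. Its log2 fold change was 0.38 ± 0.16 (adjusted p = 0.41) and 0.38 ± 0.10 with the block (adjusted p = 0.033; edgeR). With the block it lost the call without replicate 1 (adjusted p = 0.0721) and without replicate 2 (0.293). Hspa4 and Hspa4l, the other two exchange factors, had log2 fold changes of -0.11 and -0.28 and did not pass. Hspa4l differed by up to 2.38 times between Mdr1- libraries.

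Both cytosolic Hsp90 genes were tested, and neither passed. Hsp90ab1, the constitutive form, took 110164 of the counts, the most of any member. It was at 2353, 1995 and 1735 CPM in Mdr1+ and 2059, 1925 and 1515 CPM in Mdr1- cells, with overlapping groups, and its pair ratios were 1.14, 1.04 and 1.15. Its log2 fold change was 0.15 ± 0.20 without the block and 0.15 ± 0.08 with it (adjusted p = 0.248). Hsp90aa1, the inducible form, had pair ratios of 1.20, 1.498 and 0.926.

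**Figure D2:**
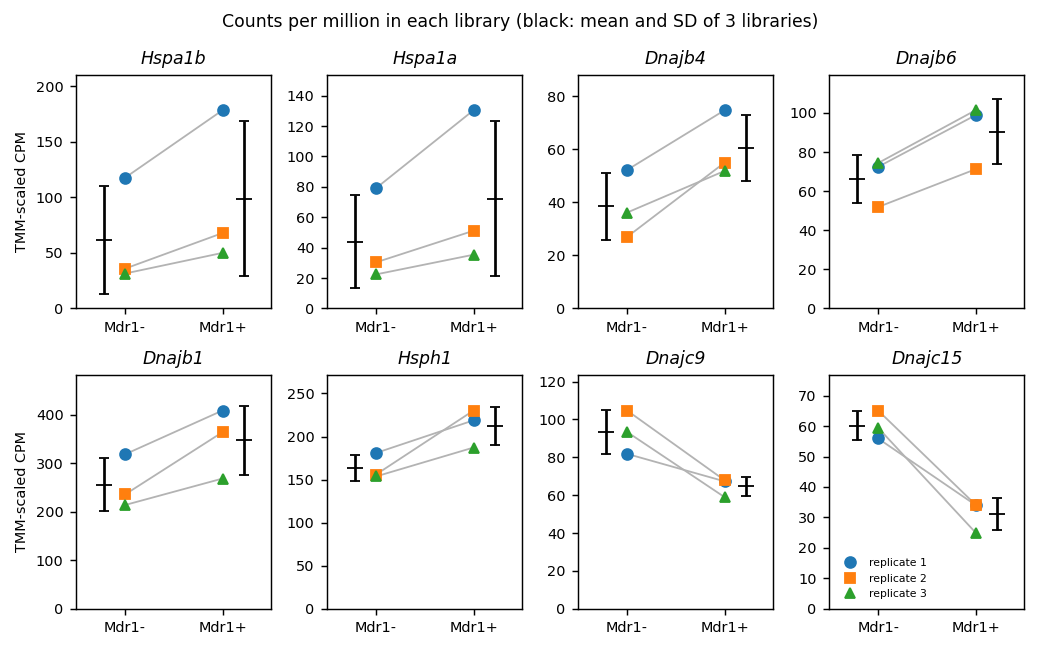
TMM-scaled CPM (y axes, linear from 0) of the 8 members that passed with the block, in Mdr1- and Mdr1+ libraries; symbols are libraries by replicate number, grey lines join the same number, and the mean of each group is drawn in black with its SD (n = 3). In Hspa1a and Hspa1b replicate 1 lies above the others in both groups while the 3 lines all rise; the lines of Dnajc9 and Dnajc15 all fall.

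The class B J proteins, the type of the classical Hsp40, held the most calls of any family with the block: 3 of 8 tested genes rose (5.81% of all tested genes did), and 6 of 8 were higher in all 3 pairs (28.2% of all tested genes were). The family's median log2 fold change was 0.44. Dnajb1, the heat-inducible Hsp40 that works with Hsp70 and Hsp110 on aggregated protein, was at 409, 365 and 269 CPM in Mdr1+ and 319, 236 and 214 CPM in Mdr1- cells. The groups overlapped, with replicate 1 highest in each, and the pair ratios were 1.28, 1.55 and 1.26. Its log2 fold change was 0.44 ± 0.22 (adjusted p = 0.493) and, with the block, 0.44 ± 0.09 (adjusted p = 0.0146; edgeR), and that call was lost without replicate 2 (0.0998).

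Dnajb4, a cytosolic class B protein, was at 74.8, 55.0 and 51.9 CPM in Mdr1+ and 52.2, 27.0 and 36.2 CPM in Mdr1- cells, with pair ratios of 1.43, 2.04 and 1.43. The groups overlapped by a narrow margin, between the Mdr1- library of replicate 1 and the Mdr1+ library of replicate 3. Without the block it did not pass (adjusted p = 0.368), and with the block it rose by 0.70 ± 0.15 on the log2 scale (adjusted p = 0.0188; edgeR). Dnajb6, which holds back protein aggregation, was at 98.9, 71.2 and 101.4 CPM in Mdr1+ and 72.4, 51.9 and 74.4 CPM in Mdr1- cells. Its 3 pair ratios were nearly equal, 1.36, 1.37 and 1.36, while both libraries of replicate 2 were low, and it rose with the block (0.45 ± 0.11, adjusted p = 0.0277; edgeR). Both calls were lost without replicate 1 (adjusted p = 0.0529 and 0.218) and without replicate 2 (0.182 and 0.169).

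Dnajb2 and Dnajb5 had no overlap between groups and did not pass in either fit. Dnajb2, known from neurons, was at 19.6, 22.1 and 21.7 CPM in Mdr1+ and 14.4, 15.5 and 14.4 CPM in Mdr1- cells (log2 difference 0.51 ± 0.23, with an adjusted p of 0.13 in the block fit). Dnajb5 was at 8.14, 8.37 and 8.02 CPM against 5.13, 6.57 and 3.91 CPM. Dnajb12 and Dnajb14, which sit in the ER membrane, had log2 fold changes of 0.15 and 0.11, and Dnajb13 one of -0.21 on 97 counts in all. Dnajb3, Dnajb7 and Dnajb8, with 12, 0 and 0 counts, were not tested.

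Class A J proteins resemble bacterial DnaJ, and 0 of 4 passed in either fit. The cytosolic members Dnaja1, Dnaja2 and Dnaja4 were higher in Mdr1+ cells in all 3 pairs. Dnaja4 had no overlap, with 86.6, 80.8 and 84.9 CPM against 70.5, 49.2 and 75.1 CPM (a log2 difference of 0.37 ± 0.20, and an adjusted p of 0.0842 in the block fit). Dnaja1 had pair ratios of 1.17, 1.62 and 1.34 and overlapping groups (adjusted p = 0.0553 with the block). Dnaja2 differed less, with ratios of 1.06, 1.17 and 1.11. Dnaja3, the mitochondrial class A protein, was level in replicates 1 and 2 (ratios 0.996 and 1.02) and lower in the shallow Mdr1+ library of replicate 3, where it rested on 20 counts (ratio 0.268).

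Class C holds J proteins with little in common beyond the J domain, and most of them serve 1 compartment or 1 client. Of 27 members 24 were tested. Without the block 1 fell (1.95% of all tested genes did), with it 2 fell (6.57% did), and 0 rose in either fit. Dnajc15 was at 34.1, 34.2 and 25.0 CPM in Mdr1+ and 55.9, 65.1 and 59.4 CPM in Mdr1- cells, a mean of 31.1 ± 5.3 against 60.2 ± 4.6 CPM (SD, n = 3 each). The groups lay far apart compared with the spread within each, and the pair ratios were 0.609, 0.525 and 0.421. Its log2 fold change was -0.93 ± 0.19 (adjusted p = 0.0426; edgeR), and -0.94 ± 0.15 with the block (adjusted p = 0.0049). An exact two-sided permutation test on CPM gave p = 0.1, the smallest that 3 against 3 allows.

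The protein of Dnajc15, also called MCJ, is known to restrain respiratory complex I, in T cells among others, and in cancer cell lines its loss has been linked to expression of the Mdr1 gene. The call without the block did not survive the loss of any 1 of the 6 libraries, with adjusted p between 0.0919 and 0.201 and log2 fold changes between -1.04 and -0.83. With the block it held without any 1 of the replicate numbers (adjusted p between 0.0010 and 0.0107). Other mitochondrial members did not pass: Dnajc19, of the protein import motor, Dnajc11, of the cristae junctions, and Dnajc30 had log2 fold changes of 0.24, -0.18 and -0.08, on 179, 2443 and 245 counts. Hspd1 and Hspe1, the chaperonin pair, had log2 fold changes of 0.13 ± 0.27 and 0.37 ± 0.28.

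Dnajc9, which hands histones H3 and H4 to Hsp70, was at 67.3, 67.9 and 58.9 CPM in Mdr1+ and 81.8, 104.7 and 93.4 CPM in Mdr1- cells. Its groups did not overlap, and its log2 fold change of -0.52 ± 0.17 (adjusted p = 0.23) passed with the block (-0.52 ± 0.12, adjusted p = 0.0264; edgeR), except without replicate 2 (adjusted p = 0.20). The cells also differed in genes of the cell cycle. Of these, 18 of 20 tested fell without the block (1.95% of all tested genes did) and 19 with it (6.57% did). Their summed level was 1069 to 1301 CPM in Mdr1+ and 3587 to 5000.3 CPM in Mdr1- libraries. The median of that list was -2.20 and its values ran from -3.74 to -0.497 (Pcna), so Dnajc9 lay near the upper end of that range. The part of cycling cells in the values of Dnajc9, Dnajc15 and Hspa14 was not tested, and in bulk libraries fewer cells of a type and less RNA per cell cannot be told apart.

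Dnajc6, an auxilin that strips clathrin from vesicles, had no overlap, with 3.16, 5.89 and 5.19 CPM in Mdr1+ and 8.71, 9.17 and 6.62 CPM in Mdr1- cells (a log2 difference of -0.78 ± 0.39, and an adjusted p of 0.177 in the block fit). Dnajc10, an ER reductase with a J domain, was at 86.1, 75.8 and 72.6 CPM against 98.7, 88.3 and 102.4 CPM and did not pass either (adjusted p = 0.13 with the block). Dnajc25 was at 7.64, 5.75 and 8.49 CPM against 5.58, 4.93 and 5.60 CPM (adjusted p = 0.494 with the block). Dnajc28 had the largest fitted log2 fold change of any member, 1.503 ± 0.75, on 88 counts in all, and its Mdr1+ library of replicate 3 decided it: the pair ratios were 1.49, 1.52 and 7.41, the last on 16 and 6 counts.

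The class C genes with the most counts were close to level. Dnajc5, the cysteine string protein of secretory vesicles, had pair ratios of 1.05, 1.175 and 0.960, and Dnajc13, an endosomal protein, 0.948, 1.07 and 1.13. Dnajc18 was higher by 1.27, 1.23 and 1.29 times and Dnajc21, of ribosome assembly, by 1.21, 1.30 and 1.17 times, without passing in either fit (adjusted p = 0.135 and 0.207 with the block). Dnajc1, Dnajc4, Dnajc7, Dnajc8, Dnajc14 and Dnajc16 had log2 fold changes between -0.04 and 0.15. Dnajc17, Dnajc24 and Dnajc27 had values of -0.35, -0.08 and -0.17, and Dnajc12 one of 0.33. Dnajc5b, Dnajc5g and Dnajc22 had no counts.

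Small heat shock proteins hold unfolded protein without ATP, and they were scarce: 2 of 8 members were tested and 0 passed. Hspb11, also a subunit of the transport machinery of cilia, had 181 counts in all and a log2 fold change of -0.43 ± 0.47, and Hspb6 had 82 counts and one of 0.06 ± 0.69. Hspb1, Hspb2, Hspb3 and Hspb7 had 0 counts in every library, which allows up to 0.144 to 1.35 CPM depending on the library. Hspb8 and Hspb9 had 1 and 15 counts.

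**Figure D3:**
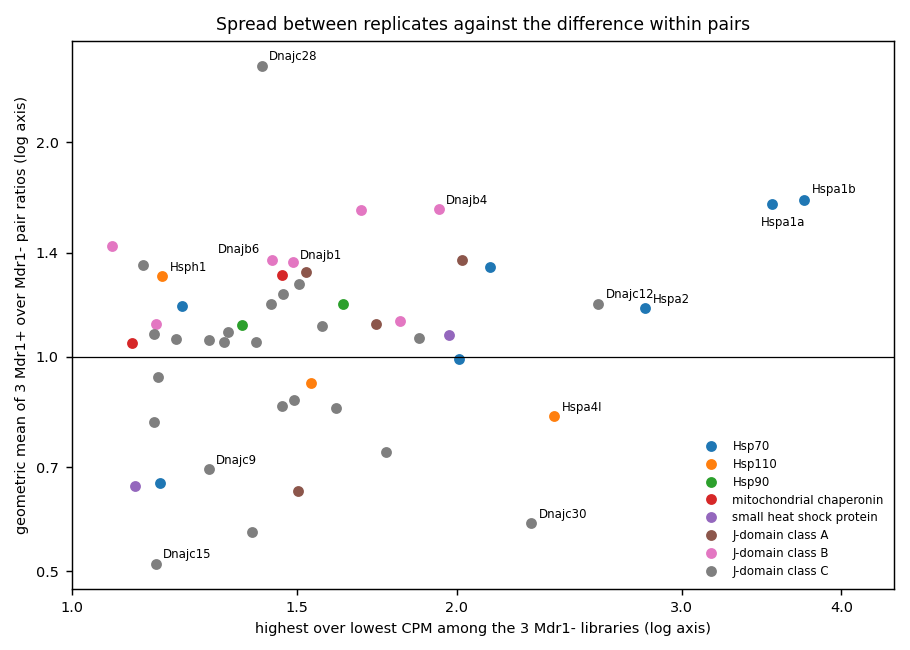
Highest over lowest CPM among the 3 Mdr1- libraries (x axis, log scale) against the geometric mean of the 3 Mdr1+ over Mdr1- ratios within replicate numbers (y axis, log scale) for the tested members; Dnajb13, with 0 counts in the Mdr1+ library of replicate 3, is not plotted. Hspa1a and Hspa1b lie farthest right, at 3.53 and 3.74, and above 1 at 1.64 and 1.66; Dnajc15 lies lowest, at 0.512, with a spread of 1.16.

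Spread between replicates differed widely among members. The highest Mdr1- library exceeded the lowest by a median of 1.48 times over tested members and 1.41 times over all tested genes, and by 3.53 and 3.74 times for Hspa1a and Hspa1b. Their means over both libraries of a number were 104.8, 40.7 and 28.9 CPM for Hspa1a and 148, 51.8 and 40.7 CPM for Hspa1b in replicates 1, 2 and 3. Hspa4l (135, 69.0 and 71.3 CPM) and Hspa13 (84.3, 41.0 and 58.0 CPM) were also highest in replicate 1. Hspa8 and Dnaja1 were highest in replicate 3 (43.7 and 88.1 CPM), so the numbers did not order all members alike.

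Sequence shared with other genes limits some of these levels, since 67.0% to 73.2% of the entries in the 4 libraries that list such a class were reads with more than 1 position, kept outside the gene counts. The share of each member's 50-base words that also occur, on either strand, in transcripts of another gene was computed from GENCODE M21. Whether a shared word lies at 1 position of the genome, where genes overlap, or at several was not tested. The median over the 67 members was 1.93%, and 17 exceeded 10%. For Hspa1a it was 66.3%, of which most (58.8%) was shared with Hspa1b, for Hspa1b it was 62.3%, all of it shared with Hspa1a, and for the untested Hspb1 it was 50.1%, mostly with Hsp25-ps1. Hsp90aa1 (47.5%), Dnaja4 (42.7%), Hspd1 (42.1%) and Hspa8 (39.4%) followed among tested members, so counts of these genes are uncertain in level. The share of Dnaja4 was all with 1 gene, Wdr61, while the largest partners of Hsp90aa1, Hspd1 and Hspa8 were Gm12346, Hspd1-ps3 and Gm15459. Dnajb6 and Dnaja1 had 21.0% and 20.6%. The share was 0 of 7500 words for Hsph1, 0 of 8905 for Dnajb4 and 0 of 6551 for Dnajc15, 0.412% for Dnajb1 and 3.14% for Dnajc9.

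Regulators and partners of the members were read from the same fits. Hsf1, the main inducer of heat shock genes, was at 60.8, 87.6 and 76.4 CPM in Mdr1+ and 53.1, 57.5 and 48.7 CPM in Mdr1- cells, without overlap, and missed the threshold (log2 fold change 0.50 ± 0.19, adjusted p = 0.33, and 0.0503 with the block). Hsf2 and Hsbp1, which binds heat shock factors, had log2 fold changes of -0.05 and 0.07. Of 15 Hsp70 cochaperones outside the members 0 passed in either fit, and the largest differences were in Sgtb (0.91 ± 0.92) and Bag5 (0.53 ± 0.23). Bag3, a cochaperone gene that heat shock induces, had a log2 fold change of 0.34 ± 0.21 and no overlap.

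Of 18 Hsp90 cochaperones 0 passed without the block, and 2 rose and 1 fell with it (5.81% and 6.57% of all tested genes did). Unc45a, a chaperone of myosin, rose (0.41 ± 0.10, adjusted p = 0.0265; edgeR), as did Cdc37l1 (0.45, adjusted p = 0.034). Fkbp5, a cochaperone of steroid receptors that glucocorticoids induce, fell: it was at 67.8, 117 and 77.8 CPM in Mdr1+ and 112, 194 and 144 CPM in Mdr1- cells (-0.77, adjusted p = 0.0016 with the block). Stip1, Ahsa1 and Fkbp4, cochaperones that heat shock also induces, had log2 fold changes of -0.09, -0.02 and 0.02.

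The cytosolic chaperonin CCT and prefoldin, which fold actin and tubulin, had a median of -0.15. In either fit 0 of 13 tested genes were called, and 7 were lower in all 3 pairs (24.6% of all tested genes were). The largest differences were in Pfdn1 (-0.49) and Pfdn5 (0.36). Mitochondrial proteases had a median of -0.09 and 0 of 10 called, and the largest differences were in Oma1 and Clpb (both -0.47). Hsp90b1 and Trap1, the Hsp90 forms of the ER and the mitochondria, did not pass either (-0.27 and 0.01).

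ER chaperones had a median of -0.28. With the block 1 of 10 rose, Dnajb9 (5.81% of all tested genes did), and 4 fell, Sdf2l1, Pdia6, Canx and Pdia3 (6.57% did). Without it 0 passed. Dnajb9, an inducible J protein of the ER, was at 164, 51.0 and 70.7 CPM in Mdr1+ and 102, 26.5 and 46.4 CPM in Mdr1- cells, highest in replicate 1 of both groups as Hspa1a was, and lowest in replicate 2 (adjusted p = 0.0049 with the block). Hspa5, the Hsp70 of the ER, differed by 0.26 on the log2 scale and missed the threshold (adjusted p = 0.0581 with the block).

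Immediate early genes are transcribed soon after a cell is stimulated. Their summed level was 8654 to 10207 CPM in Mdr1+ and 7847 to 10282 CPM in Mdr1- libraries, so the groups overlapped. With the block 1 of 16 rose, Btg2 (5.81% of all tested genes did), and 5 fell, Fos, Egr1, Egr2, Egr3 and Nr4a1 (6.57% did). Without it 0 passed. The list's median was 0.10. Egr2 was at 344, 70.0 and 100.4 CPM in Mdr1+ and 671, 116 and 283 CPM in Mdr1- cells, highest in replicate 1 of each group as Hspa1a was, and lower in Mdr1+ cells where Hspa1a was higher.

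**Figure D4:**
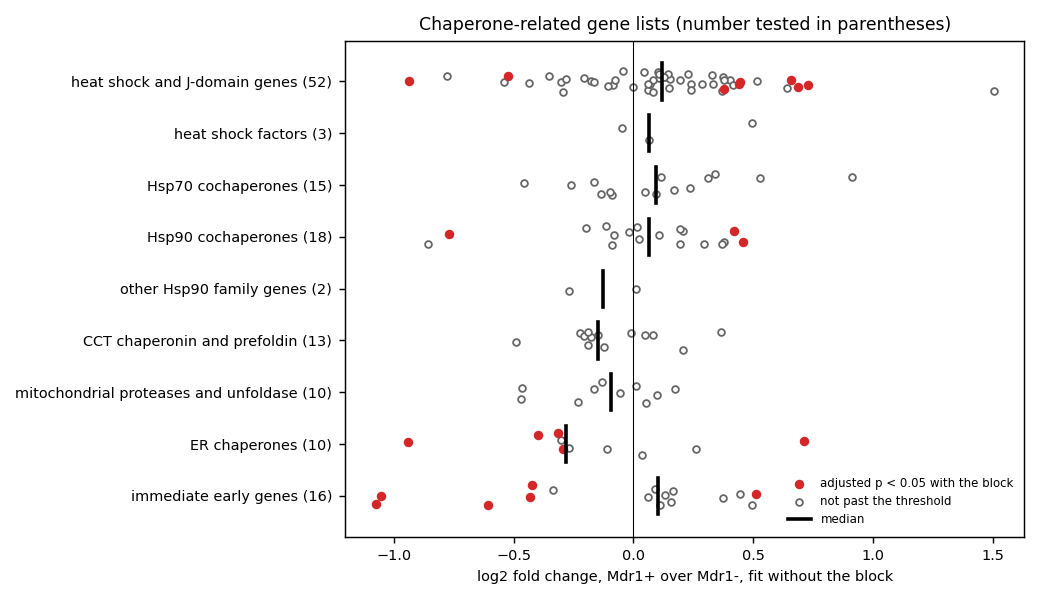
Log2 fold change of Mdr1+ over Mdr1- cells without the block (x axis) for the tested genes of the chaperone-related and immediate early lists (y axis, number tested in parentheses); red points passed with the block and black bars are medians. The cell cycle genes and the cell type markers are not plotted. Among the plotted lists, medians run from -0.28 for ER chaperones to 0.12 for the heat shock and J-domain genes.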

How the data were processed

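The authors deposited 1 table of raw counts, with a row for each gene symbol. The submitters' processing notes name TopHat, HTSeq, DESeq2 and the build mm9. Tool versions, the annotation and the use of strand in counting were not given in the sources used here. Libraries were made from 500 ng of total RNA with a stranded kit, per the labels' protocols. The columns of replicate 3 were placed on the gene names sorted ignoring case, which raised their Spearman correlation with replicates 1 and 2 over all genes from between 0.424 and 0.460 to between 0.926 and 0.962. Tests used edgeR 4.0.16 in R 4.3.3, with TMM scaling, filterByExpr by group, a robust quasi-likelihood fit on group, and Benjamini-Hochberg adjustment over 10897 genes, and the script was tested on simulated data. HTSeq's unassigned classes stayed out of library sizes. Deviations from group means (log2 CPM, prior count 2) of libraries with the same replicate number correlated at 0.41, 0.57 and 0.21, and libraries were treated as paired by number on that ground, which no label states. Values in every library are given for members past 0.05 in either fit and for up to 6 rises and 6 falls without overlap, if the average log2 CPM reached 2. The 8 members with the most reads are also named. From the other chaperone-related and immediate early lists, and the marker lists, genes past 0.05 in either fit or some of the largest changes are named, and cell cycle genes are given as counts, which departs from the naming rule. Cell type markers, Hsf2, Hsbp1, Bag3, Stip1, Ahsa1, Fkbp4 and Hspa5 were named for their role, and Egr2 and Cdh5 after their values were seen. Members and lists were chosen with earlier results of these data known. The rule for printed promoters asked for 3 units and was widened to 2 after the sequences were seen. Alternatives were DESeq2 1.42.0, other scalings and filters, and leaving out libraries.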

Additional observations from a re-analysis of the deposited data

How the results depend on the processing

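Calls depended mainly on the replicate block and on the number of libraries. Without the block 0 members rose and 1 fell, and with the replicate block 6 rose and 2 fell. The 1 fall became 0 with library totals only, with replicate 3 in its deposited row order and without any 1 library or replicate number. With the block and without 1 replicate number, 2 to 10 members rose and 2 to 4 fell. Over all tested genes 30 rose and 212 fell. These counts were 633 and 716 with the replicate block, 103 and 381 with DESeq2, and 52 higher with no filter on low counts. Without 1 library or number they ran from 0 to 15 and from 0 to 196, and with the block from 259 to 1131 (436 without replicate 1) and from 392 to 1347 (694 without replicate 1). The members' median of 0.12 was 0.0598 with library totals only and 0.0154 to 0.188 without 1 library or number. The median of all tested genes moved too, from 0.0385 to -0.0246 with library totals only. Without 1 library or number it ran from -0.0270 to 0.0410, and both medians were lowest without the Mdr1+ library of replicate 1. Leave-out values were kept for the members past the test, those without overlap and those with the most reads, and some signs turned. Without 1 library or number Dnaja2 ran from -0.0728 to 0.312, Dnajc5 from -0.0114 to 0.127, Hsp90ab1 from -0.0216 to 0.238, Hspa1a from -0.0384 to 1.427 and Hspa1b from -0.0819 to 1.531, each lowest without the Mdr1+ library of replicate 1. Dnaja2 was also at -0.045 without the Mdr1- library of replicate 2. Dnajc13 ran from -0.125 without the Mdr1+ library of replicate 3 to 0.197, and was at -0.0423 without the Mdr1- library of replicate 2 and at -0.0161 without replicate 3 (-0.0143 with the block). Hspa4 ran from -0.408 to 0.0481, the highest without the Mdr1+ library of replicate 2, and was at 0.0299 without the Mdr1- library of replicate 1. Over all tested members, 1 sign changed with library totals only, that of Dnajc4. The cause of these changes was not tested. Low depth of the Mdr1+ library of replicate 3 limits members under about 10 CPM.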
